A study of Mus musculus with 6 samples.

Results

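The 35 genes described here handle lipoprotein uptake, cholesterol transport and lipid droplets. They were chosen by gene symbol, without a threshold on their values, and all 35 were among the 22092 named genes measured in MA-10 cells, a line from a mouse Leydig cell tumour. Of the 6 samples, 3 had been treated for knockdown of MEF2A and MEF2D, 2 transcription factors of the MADS-box family, by small interfering RNA (siRNA MEF2), and 3 had received a scrambled one (siRNA control, labelled siRNA Ctrl). Total RNA was taken 48 h later. Both groups had been grown with horse serum, a source of lipoproteins, before treatment, and both come from 1 tumour line. Each sample gave 1 microarray. Values are log2 signals, a unit on which 1 is a doubling, and a difference is siRNA MEF2 minus siRNA control. The labels do not say whether the samples of a group were separate cultures, so the p-values cover the spread of these samples alone, and that spread may be technical. Each value is an average over a culture, in which fewer cells of a kind and less RNA per cell cannot be told apart.

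Leydig cells make androgens from cholesterol. They obtain it from lipoproteins, through receptor endocytosis followed by lysosomal hydrolysis or through selective uptake of cholesteryl esters from high-density lipoprotein, and they can also synthesise it. Surplus cholesterol is esterified and kept in lipid droplets, from which lipases release it for transport to mitochondria, and other carriers move sterols between membranes or out of the cell.

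Both targets of the siRNA were lower on each siRNA MEF2 array than on any control array, Mef2a by 1.72-fold (limma adjusted p = 8.41e-05) and Mef2d by 1.38-fold (adjusted p = 0.00205). As a yardstick for dim genes, though not a limit of detection, the median of the negative control probe sets was taken on each array (7.16 to 7.53 on siRNA MEF2 arrays, 7.28 to 7.35 on control arrays). All 6 Leydig cell markers read above it on at least 1 array, and their summed linear signal was 15715 to 16962 in siRNA MEF2 and 13773 to 14782 in siRNA control. Of these markers 3 rose (Lhcgr, Cyp17a1 and Nr5a1) and 2 fell, Star by 0.91 (limma adjusted p = 0.000284) and Hsd3b1 by 0.46 (adjusted p = 0.0234), so the sum does not stand for each of them. Of 8 macrophage markers, 7 lay below it on all 6 arrays, and so did 4 of 6 adipocyte, 5 of 6 endothelial and 1 of 6 Sertoli cell markers. The summed linear signal of the macrophage list was 841 to 857 on siRNA MEF2 arrays and 883 to 979 on control arrays, with Cd68 as the marker above the yardstick. Cd68 fell by 0.54 (limma adjusted p = 0.000654), whereas Ptprc rose by 0.20 (adjusted p = 0.0434) and the median difference of the list was 0.14. For the endothelial list the sums were 4080 to 4211 and 4973 to 5602 in the same order, with Cdh5 above it. Cdh5 fell by 0.42 (limma adjusted p = 0.00106), whereas Tek rose by 0.21 (adjusted p = 0.0404) and the list's median difference was 0.01. The adipocyte sums were 772 to 844 in siRNA MEF2 and 723 to 759 in siRNA control, and the Sertoli cell sums 3070 to 3291 and 2767 to 3015. Dim genes such as Ptprc and Tek tended upward on these arrays as a whole. Of 11057 genes not above the median signal of all genes, 1252 were called higher and 161 lower, and their median difference was 0.09. Rises of dim markers are therefore not read as changes in cell types. The part of the marker shifts in the results below was not tested.

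Of the 35 genes, 14 changed at an adjusted p under 0.05, 9 lower and 5 higher in siRNA MEF2. That threshold called 20.8% of all genes, 11.7% lower and 9.06% higher, against 25.7% and 14.3% of the 35. Most of the set, 29 genes, lay above the median signal of all genes. That place does not show that a gene is well expressed. On every array some negative control probe sets read above that median. Some also read above genes of the set such as Osbpl2, at 9.05 to 9.31. Of those 29, 27.6% were called lower and 17.2% higher, where 22% and 6.8% of all genes above the median were. The median difference of the set was -0.10, against 0.04 over all genes and -0.05 over all genes above the median signal. The changes were modest, from 1.13-fold to 1.52-fold. A fold is given only where both group means reached 8, and that limit was chosen with the values in view. The groups did not overlap for 12 genes that were lower and 8 that were higher in siRNA MEF2. Over all genes this held for 18% and 22.8%, or 40.8% in either direction. Of the 11035 genes above the median signal, 3666 were lower without overlap and 1587 higher. Of the 29 genes of the set above it, 11 were lower without overlap and 6 higher. With the arrays centred on their medians, lower and higher calls in the set numbered 11 and 3. Under quantile normalization, and likewise under cyclic loess, they numbered 4 and 5.

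**Figure D1:**
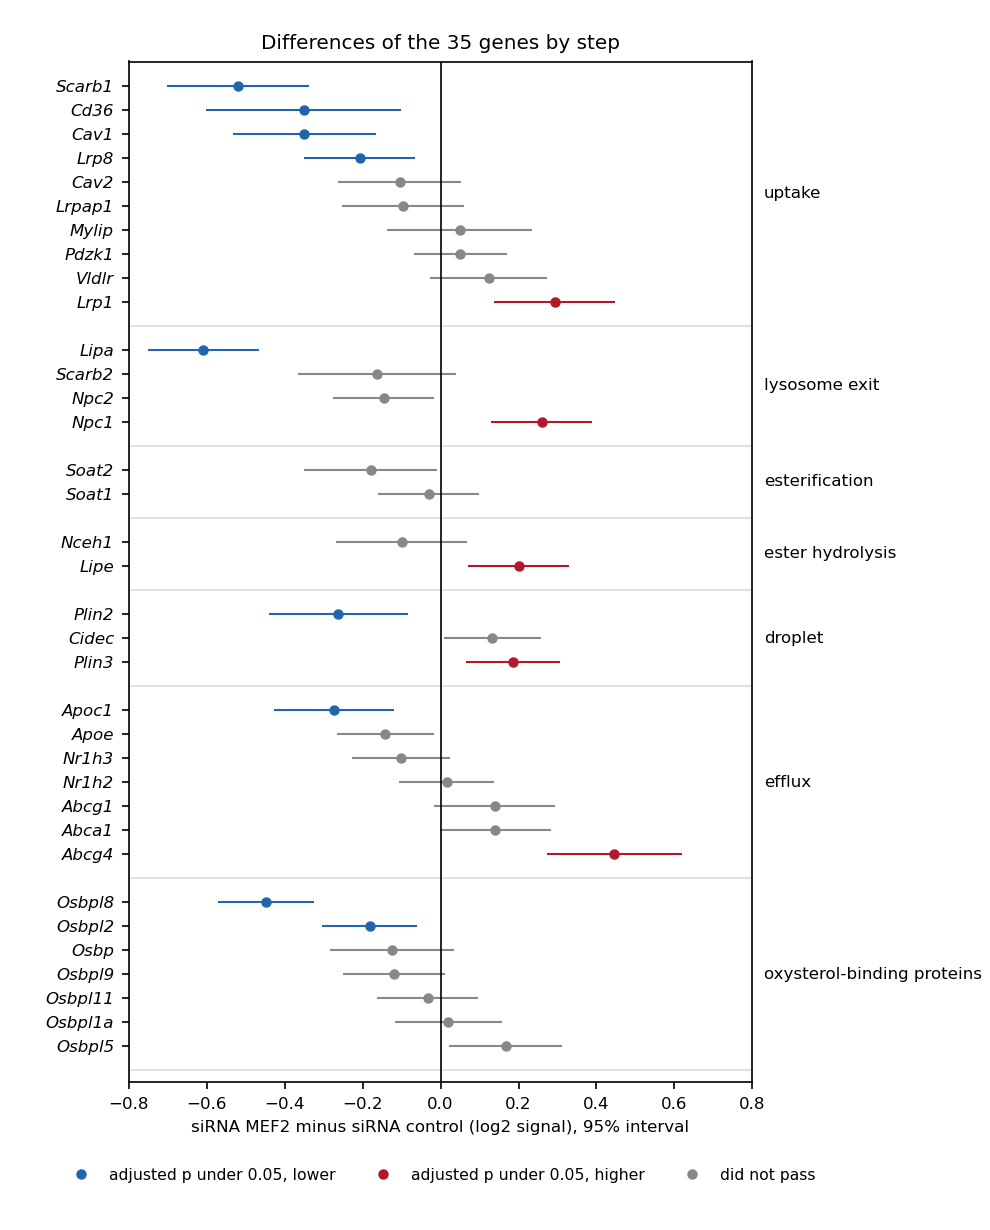
Difference between siRNA MEF2 and siRNA control (log2 signal, x axis) for each of the 35 genes, ordered by step, with the 95% interval of the limma fit (n = 3 arrays per group). Lipa, Scarb1 and Osbpl8 lie farthest to the left and Abcg4 farthest to the right, and the steps of uptake, lysosome exit, droplet and efflux each hold genes on both sides of 0.

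**Figure D2:**
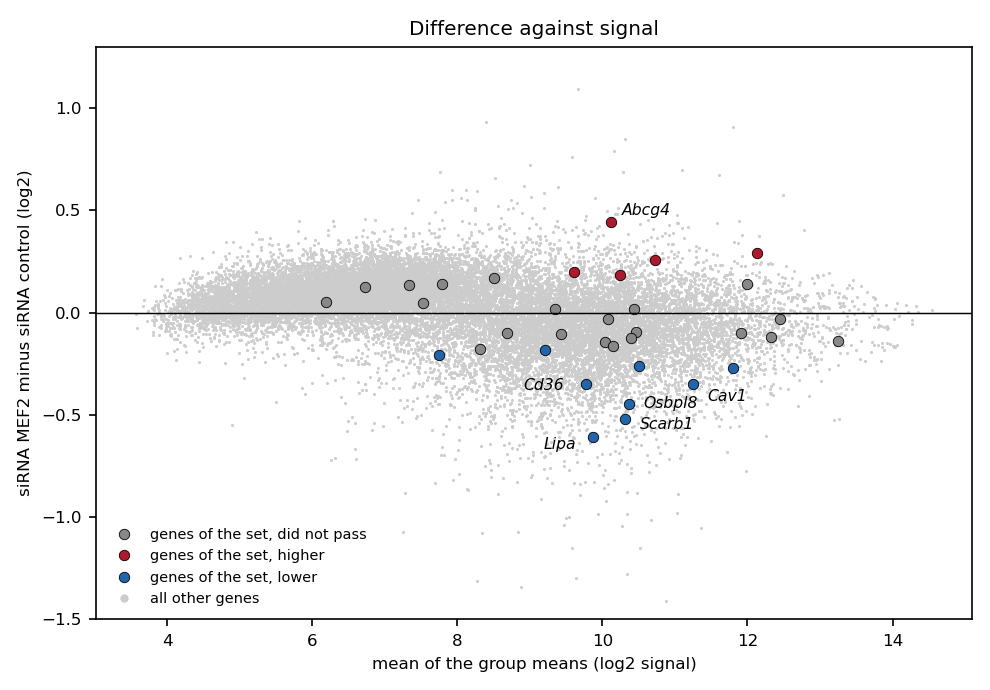
Difference (log2, y axis) against the mean of both group means (log2 signal, x axis) for all 22092 genes (grey) and the 35 genes (coloured by call). The coloured points lie within the spread of the grey ones, and 29 of the 35 are above the median signal.

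At the step of uptake, 4 of 10 genes fell and 1 rose, where 11.7% of all genes were called lower and 9.06% higher. Among all genes above the median signal, where some but not all of these 10 lie, the shares were 22% and 6.8%. Whether so small a count departs from these shares was not tested. The receptors went different ways. Scarb1 encodes the high-density lipoprotein receptor of selective cholesteryl ester uptake. Its log2 signal was 9.98, 10.20 and 9.98 on siRNA MEF2 replicates 1 to 3, against 10.52, 10.74 and 10.46 on control replicates 1 to 3. All siRNA MEF2 values were below all control values, with means of 10.05 ± 0.13 and 10.57 ± 0.15 (SD, n = 3 each). The fall of 0.52 (SE 0.08, limma adjusted p = 0.00146) was 1.43-fold. Among all 22092 differences it ranked 260 from the most negative. Cd36, a scavenger receptor of the same family that takes up fatty acids and modified lipoproteins, read 9.51, 9.71 and 9.58 in siRNA MEF2 and 9.96, 10.24 and 9.66 in siRNA control. Here the groups overlapped, since control replicate 3 lay below siRNA MEF2 replicate 2. Cd36 fell by 0.35 (SE 0.11, adjusted p = 0.0487), the weakest call of the set. It was lost in 10 of 14 alternatives, among them the fits without siRNA MEF2 replicate 1 (adjusted p = 0.122), 2 (0.071) or 3 (0.0941) and without control replicate 1 (0.111) or 2 (0.167), the last with a difference of -0.21. Without control replicate 3 the call held (adjusted p = 0.00561), with a difference of -0.50.

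Lrp1, a large endocytic receptor that binds apolipoprotein E and many other ligands, was the gene of this step that rose. It read 12.14, 12.28 and 12.42 in siRNA MEF2 against 12.01, 12.01 and 11.95 in siRNA control, without overlap. The difference was 0.29 (SE 0.07, 1.22-fold, limma adjusted p = 0.0144). Lrp8, the apolipoprotein E receptor 2 of the same family, went down. Its values were 7.59, 7.74 and 7.60 in siRNA MEF2 and 7.78, 7.83 and 7.94 in siRNA control, close to the negative control medians. The groups did not overlap, and the fall was 0.21 (SE 0.07, adjusted p = 0.0414). The call of Lrp1 was lost without control replicate 3 (adjusted p = 0.0549), and that of Lrp8 without siRNA MEF2 replicate 1 (0.0984) or 3 (0.0891) or control replicate 2 (0.0868) or 3 (0.157).

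Cav1, the main coat protein of caveolae, which are membrane pits rich in cholesterol, read 11.16, 11.10 and 10.94 in siRNA MEF2 against 11.45, 11.57 and 11.24 in siRNA control. Every siRNA MEF2 value was below every control value. Cav1 fell by 0.35 (SE 0.08, 1.27-fold, limma adjusted p = 0.0139), a call lost without control replicate 2 (0.0599), under quantile normalization (0.0521) and under cyclic loess (0.0507). Its partner Cav2, the neighbouring protein-coding gene on chromosome 6, differed by -0.10 (95% interval -0.26 to 0.05, adjusted p = 0.309). The gap between Cav1 and Cav2 moved by -0.24 (SE 0.06) without overlap between the groups. With 3 arrays against 3, the exact two-sided permutation test of such a gap cannot give a p below 0.1, which is what it gave here. The 6 pairs of related genes were chosen after the values were seen, and the p-values of gaps are not adjusted for their number. No test is given for Lrp1 and Lrp8, Npc1 and Npc2 or Plin2 and Plin3, whose opposite and non-overlapping single-gene differences fix the outcome. The remaining genes of uptake did not pass. Lrpap1, the chaperone of the receptor family, differed by -0.10 (interval -0.25 to 0.06), and Mylip, a ubiquitin ligase that marks such receptors for degradation, by 0.05 (-0.14 to 0.24). Vldlr, a receptor for triglyceride-rich lipoproteins, differed by 0.12 (-0.03 to 0.27), and Pdzk1, a scaffold that binds Scarb1 in liver, by 0.05 (-0.07 to 0.17). Vldlr and Pdzk1 lay below the negative control medians on all 6 arrays, with signals of 6.55 to 6.83 and 6.13 to 6.23.

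**Figure D3:**
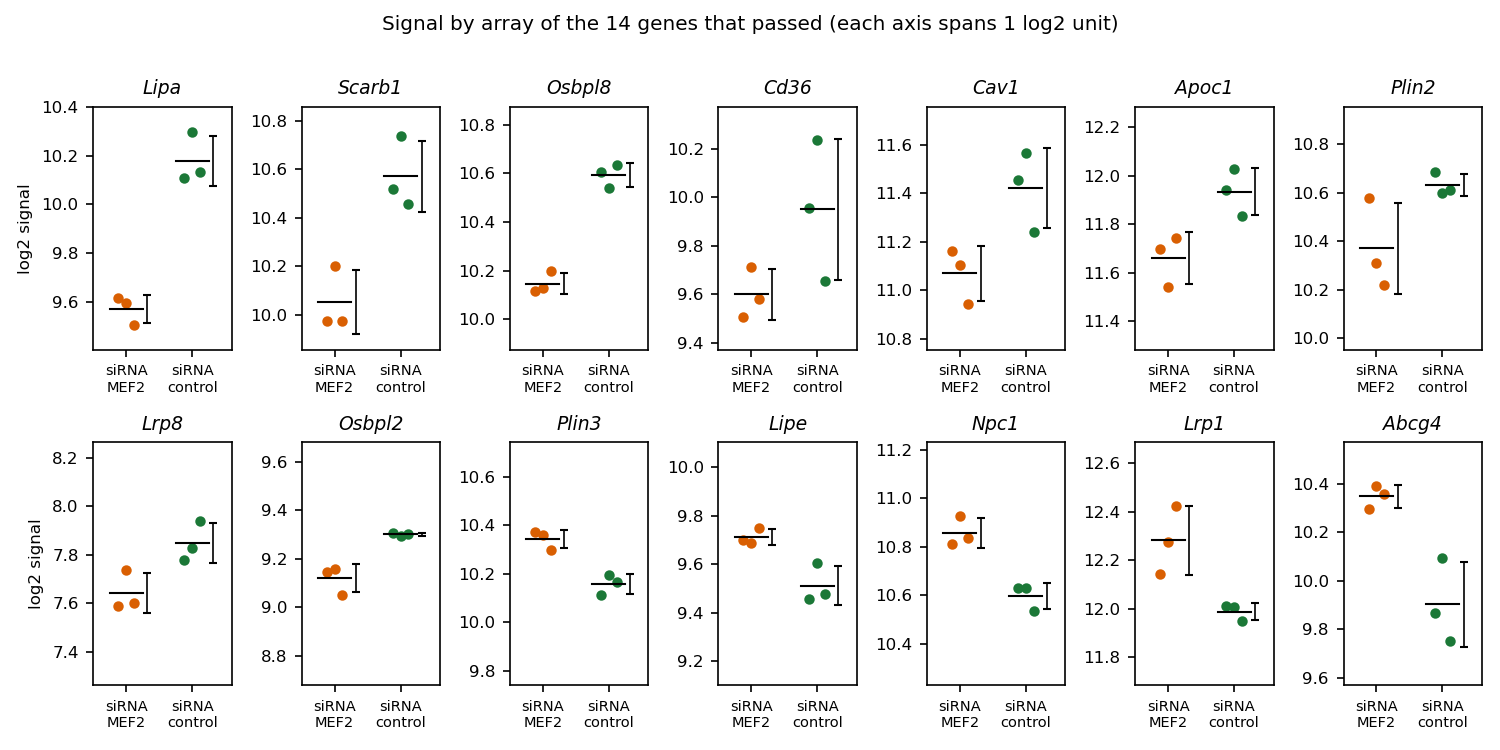
Log2 signal (y axis, 1 unit high in every panel) of the 14 genes that passed, with siRNA MEF2 arrays left and siRNA control arrays right (points), group means (lines) and SD (bars, n = 3). The groups are apart in 13 panels and overlap in that of Cd36.

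The step of lysosome exit held the largest change of the set. Lipa encodes lysosomal acid lipase, which frees cholesterol from the esters of endocytosed lipoproteins. It read 9.61, 9.59 and 9.51 on siRNA MEF2 replicates 1 to 3, against 10.11, 10.30 and 10.13 on control replicates 1 to 3. The groups were far apart compared with their spread, at 9.57 ± 0.06 and 10.18 ± 0.10 (SD, n = 3 each). Lipa fell by 0.61 (SE 0.07, limma adjusted p = 0.000129), which is 1.52-fold and rank 139 from the most negative of 22092 differences. Its promoter is shown because this gene changed most. The 250 bases before the gene start, from RefSeq (GRCm38.p6, chr19:34527475-34527724, minus strand), hold none of the 5 motifs searched, which are named further on, and so have no capitals:
Lipa: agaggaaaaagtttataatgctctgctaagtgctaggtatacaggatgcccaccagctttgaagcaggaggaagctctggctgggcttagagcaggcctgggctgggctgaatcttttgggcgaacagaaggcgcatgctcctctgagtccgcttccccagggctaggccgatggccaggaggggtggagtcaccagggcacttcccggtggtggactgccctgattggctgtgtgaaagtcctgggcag

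Npc1, the membrane protein that passes freed cholesterol out of the lysosome, changed in the other direction from Lipa. It read 10.81, 10.93 and 10.84 in siRNA MEF2 and 10.63, 10.63 and 10.54 in siRNA control. All siRNA MEF2 values were above all control values. Npc1 rose by 0.26 (SE 0.06, 1.20-fold, limma adjusted p = 0.0106), a call lost without control replicate 3 (0.0532). Npc2, the soluble protein that hands cholesterol to Npc1, read 9.99, 9.95 and 9.96 in siRNA MEF2 and 10.12, 10.19 and 10.03 in siRNA control. The groups did not overlap, but the difference of -0.15 did not pass (adjusted p = 0.0972), except after median centring (adjusted p = 0.0323). Scarb2, a lysosomal membrane protein of the Scarb1 and Cd36 family, differed by -0.16 (95% interval -0.37 to 0.04, adjusted p = 0.219).

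Neither enzyme of cholesterol esterification passed. Soat1, whose product makes cholesteryl esters in most tissues, was among the brightest genes of the set, at 12.49, 12.46 and 12.34 in siRNA MEF2 and 12.46, 12.49 and 12.43 in siRNA control. The groups overlapped, and the difference was -0.03 (95% interval -0.16 to 0.10). Soat2, the enzyme of liver and intestine, differed by -0.18 (-0.35 to -0.01, adjusted p = 0.12). Of the hydrolases that release cholesterol from droplets, Lipe, the hormone-sensitive lipase gene, rose. Lipe read 9.70, 9.69 and 9.75 in siRNA MEF2 against 9.46, 9.60 and 9.48 in siRNA control, with no overlap. The rise was 0.20 (SE 0.06, 1.15-fold, limma adjusted p = 0.035), and a second, dimmer probe set of Lipe differed by 0.27. The call of Lipe was lost with median-centred arrays (adjusted p = 0.0994) and without siRNA MEF2 replicate 1 (0.0537), 2 (0.0738) or 3 (0.0742) or control replicate 1 (0.11) or 3 (0.117). Nceh1, a neutral cholesterol ester hydrolase, differed by -0.10 (interval -0.27 to 0.07).

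Droplet coat proteins split. Plin2, which covers droplets in most cell types, read 10.58, 10.31 and 10.22 in siRNA MEF2 against 10.68, 10.60 and 10.61 in siRNA control. The groups did not overlap, although siRNA MEF2 replicate 1 came close to the lowest control. Plin2 fell by 0.26 (SE 0.08, 1.20-fold, limma adjusted p = 0.0424). Plin3, a related coat protein, read 10.37, 10.36 and 10.30 in siRNA MEF2 against 10.11, 10.19 and 10.17 in siRNA control. Every siRNA MEF2 value was the higher, and Plin3 rose by 0.19 (SE 0.06, 1.14-fold, adjusted p = 0.0357). Cidec, which promotes the fusion of droplets, differed by 0.13 (95% interval 0.01 to 0.26, adjusted p = 0.113) at a signal of 7.23 to 7.46, near the negative control medians.

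The calls of Plin2 and Plin3 did not hold in most fits with 1 array fewer, although the difference of Plin2 stayed between -0.37 and -0.19 and that of Plin3 between 0.16 and 0.21 in them. That of Plin2 was lost without siRNA MEF2 replicate 2 (adjusted p = 0.135) or 3 (0.119), without control replicate 1 (0.121), 2 (0.0842) or 3 (0.0865), and under quantile normalization (0.202, difference -0.17) or cyclic loess (0.178, difference -0.18). That of Plin3 was lost without siRNA MEF2 replicate 1 (0.0744) or 2 (0.0992), without control replicate 1 (0.108), 2 (0.0636) or 3 (0.092), and after median centring (0.0977).

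Among genes of efflux 1 of 7 rose and 1 fell, where 9.06% of all genes were called higher and 11.7% lower. Abcg4, which encodes a sterol exporter known mainly from brain, rose most in the set. It read 10.30, 10.39 and 10.36 in siRNA MEF2 against 9.87, 10.09 and 9.75 in siRNA control, with means of 10.35 ± 0.05 and 9.90 ± 0.17 (SD, n = 3 each). The groups were apart and the control arrays varied more. The rise of 0.45 (SE 0.08, limma adjusted p = 0.00287) was 1.36-fold and ranked 59 from the most positive of 22092 differences. The other exporters did not pass. Abca1, which loads cholesterol onto lipid-poor apolipoproteins, read 11.93, 12.11 and 12.15 in siRNA MEF2 and 11.93, 11.94 and 11.89 in siRNA control. It overlapped through siRNA MEF2 replicate 1 (difference 0.14, adjusted p = 0.142), and without that array it passed at 0.21 (adjusted p = 0.0343). Abcg1, which exports sterols toward high-density lipoprotein, differed by 0.14 (95% interval -0.02 to 0.29, adjusted p = 0.176). Its signal of 7.56 to 7.88 was close to the negative control medians. The gap between Abcg4 and Abcg1 overlapped between the groups (change 0.31, SE 0.18, exact permutation p = 0.4, not adjusted).

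Apoc1, an apolipoprotein of triglyceride-rich and high-density lipoproteins, was the efflux gene that fell. It read 11.70, 11.54 and 11.74 in siRNA MEF2 against 11.94, 12.03 and 11.83 in siRNA control. Without overlap between the groups, the fall was 0.27 (SE 0.07, 1.21-fold, limma adjusted p = 0.0191). Without siRNA MEF2 replicate 2 (adjusted p = 0.0826) or control replicate 1 (0.055) or 2 (0.08) the call was lost, as it was under quantile normalization (0.0753) and cyclic loess (0.0779). Apoe, its neighbour on chromosome 7 and the ligand of Lrp1 and Lrp8, was the brightest gene of the set. It read 13.18, 13.18 and 13.16 in siRNA MEF2 against 13.37, 13.35 and 13.23 in siRNA control. The values did not overlap, and the difference of -0.14 (adjusted p = 0.0982) passed after median centring (0.0325) and with a variance trend and robust estimation (0.0297). The gap between Apoc1 and Apoe overlapped between the groups (change -0.13, SE 0.07, exact permutation p = 0.2, not adjusted). The oxysterol receptor genes Nr1h3 (LXR alpha) and Nr1h2 (LXR beta), whose products switch on Abca1, Abcg1 and Apoe, differed by -0.10 (95% interval -0.23 to 0.03) and 0.02 (-0.11 to 0.14).

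Oxysterol-binding proteins carry sterols and other lipids across contacts between membranes. Of 7 genes of this family 2 fell and 0 rose. Among all genes above the median signal 22% were called lower and 6.8% higher, and a count this small cannot be set apart from those shares. Osbpl8, which acts between the endoplasmic reticulum and the plasma membrane, read 10.11, 10.13 and 10.20 in siRNA MEF2 against 10.61, 10.54 and 10.63 in siRNA control. Both groups were tight and apart, at 10.15 ± 0.04 and 10.59 ± 0.05 (SD, n = 3 each). The fall was 0.45 (SE 0.06, 1.36-fold, limma adjusted p = 0.00037). Osbpl2 read 9.14, 9.16 and 9.05 in siRNA MEF2 against 9.31, 9.29 and 9.30 in siRNA control, also without overlap. It fell by 0.18 (SE 0.06, 1.13-fold, adjusted p = 0.0397). That call was lost without each of the 6 arrays in turn: siRNA MEF2 replicate 1 (adjusted p = 0.0501), 2 (0.0667) and 3 (0.0928) and control replicate 1 (0.093), 2 (0.092) and 3 (0.106). It was also lost after quantile normalization (0.275, difference -0.10) and cyclic loess (0.148). The other genes were within -0.12 (Osbp and Osbpl9) and 0.17 (Osbpl5), with Osbpl11 at -0.03 and Osbpl1a at 0.02. Of these, Osbpl9 (adjusted p = 0.173) and Osbpl5 (adjusted p = 0.0931) did not overlap between the groups, and neither passed.

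The 250 bases before the gene start were available from RefSeq for 28 of the 35 genes (41 promoters) and were searched on both strands. The promoters of Scarb1, Abcg4, Npc1, Apoc1, Abcg1, Soat2 and Osbpl1a, the first 4 of which are among the 14 called genes, were not analysed here. A gene was counted if any of its promoters held the motif, whereas the shares over the genome count single promoters. The MEF2 consensus was in 0 of the 28 genes, against 2.92% of 32851 mouse promoters. The sterol regulatory element TCACNCCAC and the LXR element, a direct repeat of AGGTCA with 4 bases between the copies, were also in 0, against 1.05% and 0.015% of promoters. The site CAAGGTCA of NR5A1, the steroidogenic factor, was in that of Osbpl2 (1.33% of promoters), and the CLEAR element of lysosomal genes, searched for after the sequences were seen, in that of Osbpl8 (0.24%). The CLEAR element reads the same on both strands, and its letters are the capitals in the Osbpl8 sequence. No match says only that these letters are not in this window. With shares this low, 0 matches in so few genes cannot be set apart from the genome. The sequences of both genes are shown because they hold the matches among genes of the set, in capitals, with Osbpl8 from chr10:111164552-111164801 and Osbpl2 from chr2:180119056-180119305 (GRCm38.p6, plus strand).
Osbpl8: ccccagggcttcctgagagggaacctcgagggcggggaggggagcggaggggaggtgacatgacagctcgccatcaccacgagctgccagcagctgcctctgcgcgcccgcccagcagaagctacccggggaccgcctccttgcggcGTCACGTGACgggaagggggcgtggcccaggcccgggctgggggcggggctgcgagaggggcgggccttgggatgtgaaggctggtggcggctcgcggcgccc
Osbpl2: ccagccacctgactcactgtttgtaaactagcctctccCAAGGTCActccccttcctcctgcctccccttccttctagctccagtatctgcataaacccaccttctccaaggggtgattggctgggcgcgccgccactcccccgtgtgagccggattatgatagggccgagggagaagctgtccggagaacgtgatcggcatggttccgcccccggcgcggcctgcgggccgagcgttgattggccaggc

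Lipa, Scarb1, Osbpl8 and Abcg4 passed in all 14 alternatives tried. Their differences lay between -0.66 and -0.52, -0.60 and -0.43, -0.50 and -0.36, and 0.37 and 0.54, in that order. The other 10 genes lost the call in at least 1 alternative, while their direction did not change in any alternative that tested them (Lrp8 falls below the signal filter).

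**Figure D4:**
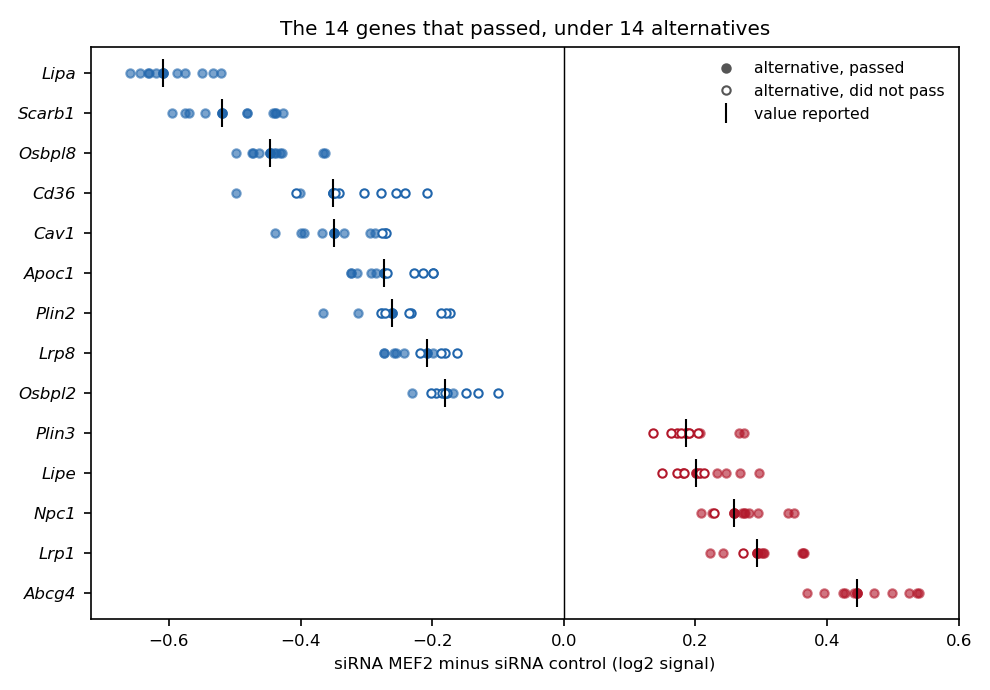
Difference (log2 signal, x axis) of the 14 genes that passed, as reported (bars) and under each alternative (filled points passed, open points did not). Lipa, Scarb1, Osbpl8 and Abcg4 have no open point, and no point crosses 0.

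Other genes of these steps, 89 in 3 lists, were called in 19.1% of cases, 12 lower and 5 higher, where 20.8% of all genes were. Their median difference was 0.01, against 0.04 over all genes. Of 27 further receptor and uptake genes 2 fell and 1 rose, where 11.7% of all genes were called lower and 9.06% higher. Lrp6, which belongs to the receptor family but is known as a Wnt coreceptor, fell by 0.46 (limma adjusted p = 0.000273). Lsr, a receptor of triglyceride-rich lipoproteins, fell by 0.38 (adjusted p = 0.00819). Stab2, a scavenger receptor, rose by 0.19 (adjusted p = 0.036) at a signal of 7.32 to 7.58, near the negative control medians.

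Of 26 further droplet and ester genes 5 fell and 1 rose, where 11.7% of all genes, and 22% of those above the median signal, were called lower. Hsd17b11, a droplet-associated dehydrogenase gene, fell by 0.35 and Bscl2, which encodes the droplet assembly protein seipin, by 0.25 (limma adjusted p = 0.00915 and 0.0135). Rab18, a small GTPase found on droplets, fell by 0.26 (adjusted p = 0.0185) and the intermediate filament gene Vim by 0.18 (adjusted p = 0.0349). Fitm2, whose product promotes droplet formation at the endoplasmic reticulum, rose by 0.22 (adjusted p = 0.0318).

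Of 36 further genes of efflux and sterol transfer 5 fell and 3 rose, where 11.7% of all genes were called lower and 9.06% higher. The largest fall among the 36 was that of Rora, a nuclear receptor gene, by 0.50 (limma adjusted p = 0.000434). Vapb, a membrane anchor to which some oxysterol-binding proteins attach, fell by 0.30 (limma adjusted p = 0.00347). Osbpl6, of the same family as Osbpl8, fell by 0.43 (adjusted p = 0.00987). Nr1h4, the bile acid receptor gene, fell by 0.34 at a signal of 7.30 to 7.83 (adjusted p = 0.00496). Gramd1b, which moves cholesterol from the plasma membrane to the endoplasmic reticulum, rose by 0.18 (adjusted p = 0.0491). Apoa1, an apolipoprotein, rose by 0.22 (adjusted p = 0.0428), and Abca5, below the negative control medians on every array, by 0.18 (adjusted p = 0.0487). Over the 89 genes, lower and higher calls numbered 20 and 0 with median-centred arrays. They were 5 and 3 under quantile normalization, and 9 and 2 under cyclic loess. Higher calls were 1, 0 and 4 without siRNA MEF2 replicates 1, 2 and 3 and 1 without each control replicate, and lower calls 8 without siRNA MEF2 replicate 2 or control replicate 2.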

How the data were processed

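RNA of 6 MA-10 samples was hybridised to 1-colour Affymetrix whole-transcript arrays, per the labels' protocols. The authors deposited log2 signals per probe set, which are RMA values at gene level per the file headers; RMA and Partek are the tools that the submitters' processing notes list. RMA scales arrays to each other, so a shift shared by most genes may not be measurable; the deposited arrays still differed a little, with medians of named probe sets from 7.85 to 7.91. Neither the array design nor the annotation release is named in the sources used here. Both deposited tables held the same 35557 probe sets (largest difference 0.0). Probe sets were named by accession, then symbol, through a RefSeq table of GRCm38.p6, used for names, order and promoter sequences: 25521 had 1 gene name, for 22092 genes. The probe set with the highest mean stood for a gene; of the 35 genes only Lipe had more than 1. No filter on low signal was applied.

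Groups were compared by limma (3.58.1, under R 4.3.3; lmFit, then eBayes) with no covariate. P-values are two-sided, adjusted by Benjamini-Hochberg over all 22092 genes, and the SE is moderated. The script was tested on simulated data. The genes, lists and tests were chosen with earlier results of these data known. Named are all 35 genes, Mef2a, Mef2d and, per list of further genes, up to 4 called genes with the smallest p in each direction. Alternatives were 3 scalings, a signal filter, the mean over probe sets, another variance model, array weights, a replicate block and leaving out each array. The number of arrays limits the precision.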

Additional observations from a re-analysis of the deposited data

How the results depend on the processing

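With 9 lower and 5 higher calls among the 35 genes as reported, higher calls fell to 3 after median centring and lower calls to 4 after quantile normalization or cyclic loess; the cause was not tested. Leaving out 1 array, with fewer samples, gave 3 to 6 lower calls and 1 to 4 higher calls. Lower calls were 6 and 5 without siRNA MEF2 replicates 1 and 2, 5 without replicate 3, and 5, 3 and 6 without control replicates 1, 2 and 3. Higher calls were 3 without siRNA MEF2 replicate 2 or control replicate 1, and 1 without control replicate 3. For the 89 further genes, with 12 lower and 5 higher calls, median centring gave 20 and 0, quantile normalization 5 and 3, and cyclic loess 2 higher. Genes above the median signal gave 3 higher calls and array weights 8. Leaving out 1 array gave 8 to 15 lower and 0 to 4 higher calls.

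Of the 35 genes 6 changed sign in some alternative, none of them called; the cause was not tested. Mylip became -0.00080 after median centring, -0.0342 after quantile normalization, -0.0314 after cyclic loess and -0.0127 with array weights, and lay between -0.0198 and 0.136 when 1 array was left out. Pdzk1 became -0.0368 after quantile normalization and -0.0420 after cyclic loess. Soat1 became 0.0336 and 0.0365 after these (-0.0617 to 0.0150 when 1 array was left out), and Osbpl11 0.0595 and 0.0464 (-0.0738 to 0.0040). Nr1h2 became -0.0347 after median centring (-0.0102 to 0.0429 when 1 array was left out), and Osbpl1a -0.0311 (-0.0329 to 0.0505).

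The labels number the replicates of both groups 1 to 3, but deviations of same-numbered arrays correlated at 0.11, 0.08 and 0.10, so the numbers were not taken as pairs, although each siRNA MEF2 array correlated best with the control of its own number. With the replicate number as a block, the 35 genes had 9 lower and 5 higher calls and the 89 further genes 13 and 6. Over all genes the block gave 5324 calls, against 4586 without it. In the set it made the limma adjusted p smaller for some genes, as for Scarb1 (2.23e-05) and Cd36 (0.00423). For others it was larger, as for Osbpl2 (0.0447) and Plin3 (0.0412). Whether the numbers mark a shared handling of arrays was not tested. Signals near or below the negative control medians (Vldlr, Pdzk1, Cidec, Mylip, Lrp8, Abcg1) limit what can be said of these genes.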
